A study of Mus musculus with 12 samples.

Results

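The genes described here were the tumour suppressor gene Trp53, which encodes p53, 8 genes known as p53 targets (Mdm2, Cdkn1a, Bax, Bbc3, Pmaip1, Ccng1, Sesn2 and Gdf15), and Kat5, which encodes the acetyltransferase TIP60. They were taken by symbol because PDCD5 is reported to act with KAT5 and p53, and they are 10 of the 23282 gene symbols in the count tables. The mouse club cell line C22 had been profiled by 3′ end RNA sequencing in 12 libraries, in 4 groups of 3. The groups were a negative control (NC), NC with TGF-β1, cells with an siRNA against Pdcd5 (siPDCD5), and siPDCD5 with TGF-β1. All cells had been differentiated and then starved of serum, and TGF-β1 was given at 20 ng/ml for 24 h. C22 is 1 cloned line from H-2Kb-tsA58 transgenic mice, in which a temperature-sensitive SV40 large T antigen is expressed under an interferon-inducible promoter. Large T antigen is known to bind p53, and differentiation is started by withdrawing interferon-γ at the temperature at which it is unstable.

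p53 is a transcription factor that is kept at a low level by MDM2, a ubiquitin ligase that is itself a product of a p53 target gene. When cells are stressed p53 accumulates, is modified, and switches on genes for cell cycle arrest (Cdkn1a), for cell death (Bax, Bbc3, Pmaip1) and for adaptation to stress (Sesn2, Gdf15). TIP60 acetylates histones and also p53 itself, a modification that is known to favour the cell death genes. Much of this control acts on the p53 protein and not on Trp53 mRNA, so that target genes are commonly read as the output of the pathway.

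p53 binds pairs of 10-base half-sites. RefSeq promoter windows (build GRCm38.p6, 250 bases before to 50 after each start site) were held for 9 of the 10 genes, and each was searched for the p53 consensus of 2 abutting half-sites, which reads the same on both strands. The 90-base stretches around the best match are shown for Cdkn1a and Ccng1, the pair with a match of 1 mismatch, and for Bbc3, whose level changed. The 20 matched bases are in capitals, and the sequences follow the strand of the gene.
Cdkn1a: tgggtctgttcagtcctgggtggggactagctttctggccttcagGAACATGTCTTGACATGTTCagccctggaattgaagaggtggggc
Ccng1: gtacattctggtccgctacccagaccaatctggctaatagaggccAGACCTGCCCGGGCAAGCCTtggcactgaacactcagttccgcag
Bbc3: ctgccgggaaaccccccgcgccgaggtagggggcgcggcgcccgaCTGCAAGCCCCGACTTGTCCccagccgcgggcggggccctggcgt
The Cdkn1a stretch lies at chr17:29090883-29090972 on the plus strand, and its match begins 51 bases before the start site, upstream of the gene. The Ccng1 stretch lies at chr11:40755437-40755526 on the minus strand, and its match begins 195 bases before the start site, also upstream of the gene. The Bbc3 stretch lies at chr7:16309441-16309530 on the plus strand and holds a match of 3 mismatches in an intron of the gene as GENCODE draws it, 97 bases before a RefSeq start site. A match of at most 1 mismatch was held by 29 of 27025 genes with a promoter window (0.107%), and one of at most 3 mismatches by 7.2%. Trp53, Bax and Kat5 had best matches of 3 mismatches, and Mdm2, Sesn2 and Gdf15 of 5, a level that 79.2% of all genes reach. Sites outside these windows, or with bases between the half-sites, were not searched for, so a poor match does not mean that a gene lacks a p53 site.

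On GRCm38 (GENCODE M21) the genes changed by TGF-β1 were Gdf15 at chr8:70629393-70632456, on the minus strand, Bbc3 at chr7:16308393-16318205, on the plus strand, and Ccng1 at chr11:40748552-40755311, on the minus strand, none of which overlaps another gene. Trp53 lies at chr11:69580359-69591873 on the plus strand, also clear of other genes, and Kat5 at chr19:5603014-5610237 on the minus strand. Bax and Sesn2 each overlap an annotated gene on the same strand (Gm45808 and Gm12981), and Cdkn1a and Kat5 one on the other strand (AC167363.2 and Rnaseh2c), so that their counts could be shared with these.

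The libraries held 12809857 to 17714828 counts. Pdcd5 stood at 65.1 to 73.5 CPM (library-scaled counts, using TMM factors) in NC and at 20.0 to 22.1 CPM in siPDCD5, and with TGF-β1 at 66.3 to 69.7 and 21.8 to 26.3 CPM, so each siPDCD5 library carried the knockdown. NC + TGF-β1 replicate 2 and siPDCD5 replicate 1 stood apart from the other 10 libraries on the third principal component of all tested genes (scores of -38.1 and -25.5, against -2.70 to 16.3), and the results that rest on them are given with and without both, a setting chosen after seeing the data. Of 7 club cell markers, Scgb3a2 and Cyp2f2 had 0 counts in every library, which allows up to 0.239 CPM per library. Scgb1a1, the defining marker, had 1 count in 1 library. Scgb3a1 had at most 5 counts and Cyp4b1 at most 2 in any library, whereas Cbr2 and Aldh1a1 were present. Aldh1a1 was lower with both treatments, from a mean of 553 CPM in the controls to 238 with TGF-β1 alone, 305 with knockdown alone and 160 with both. The epithelial keratins Krt8 and Krt18 were present. Cdh1 had group means of 2.12 to 3.18 CPM, and Epcam, Nkx2-1, Foxa1, Krt19 and Cldn4 were at or near 0. Foxa2, an airway transcription factor gene, went from a mean of 172 CPM in NC to 50.3 in NC + TGF-β1, and the basal cell keratin Krt14 from 10.8 to 187. The other basal cell markers read, Krt5, Krt15, Trp63 and Ngfr, had group means of at most 0.71 CPM. The summed level of 7 fibroblast markers, led by Col1a1, was 3761 to 4005 CPM in NC, 7447 to 8065 in NC + TGF-β1, 2562 to 3137 in siPDCD5 and 5613 to 5972 in siPDCD5 + TGF-β1. That sum was mostly Col1a1 and Col3a1, and other markers of the list went other ways: Dcn had means of 95.7, 22.6, 144 and 41.5 CPM in these groups and Col1a2 went from 3.49 to 3.65 CPM in NC to 9.79 to 15.1 CPM in siPDCD5. Several of these markers moved with the treatments, and their part in the results below was not tested. In bulk RNA a smaller share of one kind of cell cannot be told apart from less RNA per cell.

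TGF-β1 changed 3 of the genes in NC cells, where Gdf15 rose and Bbc3 and Ccng1 fell, and Gdf15 rose again in siPDCD5 cells. Knockdown of Pdcd5 moved none of them past the threshold, either without or with TGF-β1, although Gdf15 was higher in siPDCD5 cells in both settings. Over all tested genes, 15.3% passed with TGF-β1 in NC cells and 16.1% in siPDCD5 cells. With knockdown 3.44% passed without TGF-β1 and 1.55% with it, so these counts are no result about the set. Trp53 and Kat5 mRNA passed in no comparison. Changes were tested with edgeR's quasi-likelihood test on 12425 genes with Benjamini-Hochberg adjustment, and genes with an adjusted p under 0.05 were called. Of the 10 genes, 9 could be tested. Pmaip1, whose product NOXA blocks survival proteins of the BCL-2 family, had 1 count in NC replicate 2 and 0 in the other 11 libraries, so no change in it was detectable at this depth.

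**Figure D1:**
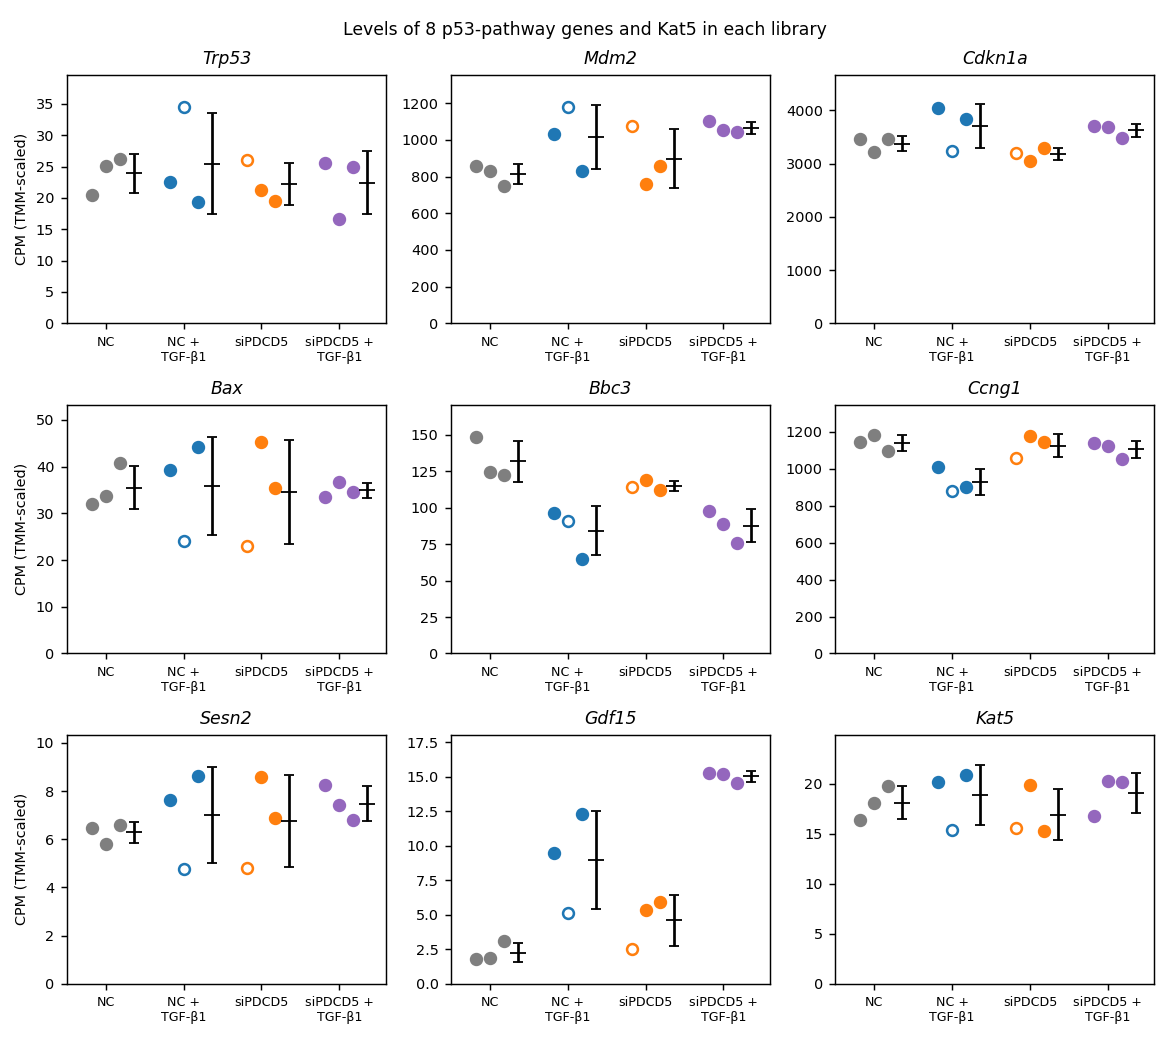
Level of each tested gene (CPM, TMM-scaled, axes from 0) in the 3 libraries of each group, with the group mean and SD in black; open circles are NC + TGF-β1 replicate 2 and siPDCD5 replicate 1. Gdf15 ran from 1.82 CPM in NC to 15.3 CPM in siPDCD5 + TGF-β1, and the Bbc3 values of both TGF-β1 groups lay below those of the groups without it.

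Gdf15 encodes a secreted stress cytokine of the TGF-β superfamily. Its level was 1.82, 1.85 and 3.07 CPM in the 3 NC libraries and 9.47, 5.16 and 12.3 CPM in those of NC + TGF-β1. It was 2.51, 5.35 and 5.92 CPM in siPDCD5 and 15.3, 15.2 and 14.6 CPM in siPDCD5 + TGF-β1. Every library with TGF-β1 lay above every NC library, and the siPDCD5 + TGF-β1 libraries lay above all the others. In counts the NC libraries held only 24 to 40, so that the lower end of these ratios rests on few reads.

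In NC cells the log2 fold change of Gdf15 with TGF-β1 was 1.99 ± 0.35 (SE, n = 3 and 3), or 3.98-fold (95% confidence interval 2.36 to 6.72, adjusted p = 0.00107). In siPDCD5 cells it was 1.69 ± 0.31, or 3.23-fold (interval 2.04 to 5.14, adjusted p = 0.00158). The difference between these responses was -0.30 on the log2 scale (interval -1.30 to 0.70, adjusted p = 0.981), so the interval includes both a larger and a smaller response after knockdown. The rise stayed past the threshold in all 21 alternative fits in NC cells (log2 1.70 to 2.27) and in siPDCD5 cells (1.42 to 1.91). These fits leave out a requirement of an absolute log2 fold change of at least 1, which Gdf15 also met and which by its construction ends any call of a smaller change. Without the libraries that stood apart, the difference between the responses was -0.85 (adjusted p = 0.143).

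With knockdown Gdf15 had the largest fold changes of the 9 genes. Without TGF-β1 its log2 fold change was 1.04 ± 0.36 (2.06-fold, interval 1.20 to 3.53, adjusted p = 0.157), and siPDCD5 replicate 1 lay within the NC range while the other siPDCD5 libraries lay above it. With TGF-β1 it was 0.74 ± 0.30 (1.67-fold, interval 1.07 to 2.61, adjusted p = 0.28), with no overlap between the groups. Without siPDCD5 replicate 1 the change in cells not given TGF-β1 was 1.32 (adjusted p = 0.0447), and without NC + TGF-β1 replicate 2, which enters only through the shared estimate of the spread, it was 1.05 (adjusted p = 0.0432). Leaving out both, a setting chosen after seeing the data, gave 1.32 (adjusted p = 0.000475), and the change with TGF-β1 was then 0.47 (adjusted p = 0.114).

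Among the cell death genes, Bbc3 encodes PUMA, a BH3-only protein that frees BAX to act on mitochondria. It was at 148, 125 and 123 CPM in NC and at 96.4, 90.8 and 64.8 CPM in NC + TGF-β1. It was at 114, 119 and 112 CPM in siPDCD5 and at 98.0, 88.9 and 75.6 CPM in siPDCD5 + TGF-β1. All 6 libraries with TGF-β1 were below all 6 without it. In NC cells the log2 fold change was -0.65 ± 0.14 (0.638-fold, interval 0.518 to 0.784, adjusted p = 0.00473), a call that held in all 21 alternative fits and ended only where an absolute log2 fold change of at least 1 was required.

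In siPDCD5 cells the log2 fold change of Bbc3 with TGF-β1 was -0.39 ± 0.14 (0.761-fold, interval 0.619 to 0.936, adjusted p = 0.0703). It passed the threshold without NC + TGF-β1 replicate 2 (adjusted p = 0.0357) or replicate 3 (0.02), libraries that enter that comparison only through the shared spread, and in 4 other settings. The test of the difference between the NC and siPDCD5 responses gave 0.26 on the log2 scale (interval -0.17 to 0.68, adjusted p = 0.96). With knockdown alone the 3 siPDCD5 libraries lay just below the 3 NC libraries, at a log2 fold change of -0.20 ± 0.14 (adjusted p = 0.55).

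Bax encodes the pore-forming effector on which these signals converge. It was at 32.1, 33.7 and 40.7 CPM in NC, at 39.3, 24.0 and 44.2 CPM in NC + TGF-β1, at 23.0, 45.2 and 35.4 CPM in siPDCD5, and at 33.5, 36.6 and 34.6 CPM in siPDCD5 + TGF-β1. The groups overlapped in every comparison, and the lowest values were those of the libraries that stood apart. Its log2 fold changes lay between -0.04 and 0.01, each with a standard error of 0.23, and the interval for knockdown without TGF-β1 ran from -0.52 to 0.45. These values rested on those libraries: without both, the log2 fold change was 0.23 with TGF-β1 in NC cells (adjusted p = 0.164), -0.21 in siPDCD5 cells (0.208), and 0.18 (0.389) and -0.26 (0.194) with knockdown without and with TGF-β1, none of them called.

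Of the genes of cell cycle arrest, Cdkn1a encodes p21, an inhibitor of cyclin-dependent kinases. It stood at 3451, 3213 and 3452 CPM in NC and at 4034, 3240 and 3836 CPM in NC + TGF-β1. It stood at 3198, 3056 and 3285 CPM in siPDCD5 and at 3703, 3685 and 3482 CPM in siPDCD5 + TGF-β1. The siPDCD5 + TGF-β1 libraries lay above the siPDCD5 libraries, whereas the groups of NC cells overlapped through NC + TGF-β1 replicate 2.

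The log2 fold change of Cdkn1a with TGF-β1 was 0.14 ± 0.094 in NC cells (adjusted p = 0.399) and 0.19 ± 0.094 in siPDCD5 cells (adjusted p = 0.205), and neither was called. Leaving out the libraries that stood apart gave 0.21 in NC cells (adjusted p = 0.0272), the only 1 of 21 alternative fits that called it. Over these fits the value in NC cells ran from -0.17 to 0.22, with a change of sign in 1. With knockdown the log2 fold change of Cdkn1a was -0.08 without TGF-β1 (interval -0.29 to 0.12) and -0.03 with it (interval -0.23 to 0.17). These are among the narrowest intervals of the set, and a knockdown effect on Cdkn1a of more than 0.29 in either direction lay outside both.

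Ccng1 encodes cyclin G1, which recruits a phosphatase to MDM2. It was at 1147, 1184 and 1097 CPM in NC and at 1009, 880 and 900 CPM in NC + TGF-β1. It was at 1057, 1176 and 1143 CPM in siPDCD5 and at 1142, 1124 and 1055 CPM in siPDCD5 + TGF-β1. The NC + TGF-β1 libraries were the lowest 3 of the 12, and the other 3 groups overlapped one another.

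In NC cells the log2 fold change of Ccng1 with TGF-β1 was -0.30 ± 0.085 (0.814-fold, interval 0.717 to 0.924, adjusted p = 0.0283). The call was lost without NC replicate 1 (adjusted p = 0.0821), NC replicate 2 (0.11), NC + TGF-β1 replicate 2 (0.0501) or NC + TGF-β1 replicate 3 (0.0792), and it held in 14 of 21 alternative fits, always with the same sign, and not where an absolute log2 fold change of at least 1 was required. Without both libraries that stood apart it was -0.27 (adjusted p = 0.00751). In siPDCD5 cells the log2 fold change was -0.02 (interval -0.21 to 0.16, adjusted p = 0.887). The test of the difference between these responses gave 0.27 (interval 0.02 to 0.53, unadjusted p = 0.0395 by edgeR's quasi-likelihood test, adjusted p = 0.951). In cells given TGF-β1, knockdown went with a log2 fold change of 0.25 ± 0.085 and no overlap between the groups (adjusted p = 0.186). Without both libraries that stood apart, the difference between the responses was 0.20 (adjusted p = 0.344). The knockdown value with TGF-β1 was then 0.22 (adjusted p = 0.0667).

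Mdm2, the negative regulator, was at 860, 831 and 751 CPM in NC and at 1034, 1178 and 832 CPM in NC + TGF-β1. It was at 1074, 758 and 859 CPM in siPDCD5 and at 1103, 1054 and 1041 CPM in siPDCD5 + TGF-β1. The groups overlapped in all 4 comparisons, and siPDCD5 replicate 1 reached the level of the libraries with TGF-β1. The log2 fold change with TGF-β1 was 0.32 ± 0.14 in NC cells (adjusted p = 0.14) and 0.25 ± 0.14 in siPDCD5 cells (adjusted p = 0.245).

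Mdm2 passed the threshold in 1 of 21 alternative fits in each TGF-β1 comparison. In NC cells it passed without NC + TGF-β1 replicate 3 (log2 0.45, adjusted p = 0.0302). In siPDCD5 cells it passed without both libraries that stood apart (log2 0.40, adjusted p = 0.00119). That last setting gave 0.19 in NC cells (adjusted p = 0.11). With knockdown the log2 fold change of Mdm2 was 0.14 (interval -0.15 to 0.43) without TGF-β1 and 0.07 (interval -0.22 to 0.36) with it. Without both libraries that stood apart these values were -0.02 (adjusted p = 0.947) and 0.20 (adjusted p = 0.172). Sesn2 encodes a sestrin, which restrains mTORC1 under stress, and its libraries ran from 4.78 to 8.63 CPM, with the lowest values in NC + TGF-β1 replicate 2 and siPDCD5 replicate 1. Its log2 fold changes lay between 0.09 and 0.16, with standard errors of 0.23 to 0.24 and overlap in every comparison. Without the libraries that stood apart, Sesn2 was at 0.36 with TGF-β1 in NC cells (adjusted p = 0.168), -0.05 in siPDCD5 cells (0.873), and 0.30 (0.371) and -0.12 (0.762) with knockdown without and with TGF-β1.

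Trp53 mRNA was at 20.5, 25.1 and 26.3 CPM in NC and at 22.5, 34.5 and 19.4 CPM in NC + TGF-β1. It was at 26.0, 21.2 and 19.4 CPM in siPDCD5 and at 25.6, 16.6 and 25.0 CPM in siPDCD5 + TGF-β1. No group stood away from another, and the highest value was that of NC + TGF-β1 replicate 2. The log2 fold change with knockdown was -0.11 (interval -0.56 to 0.35, adjusted p = 0.867) without TGF-β1 and -0.18 (interval -0.64 to 0.27, adjusted p = 0.78) with it, and with TGF-β1 it was 0.09 in NC cells and 0.02 in siPDCD5 cells. Without the libraries that stood apart, Trp53 was at -0.20 with TGF-β1 in NC cells (adjusted p = 0.357), 0.15 in siPDCD5 cells (0.545), and -0.24 (0.383) and 0.11 (0.723) with knockdown without and with TGF-β1. The sign thus turned with TGF-β1 in NC cells and with knockdown with TGF-β1, and none of these values was called.

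Kat5 mRNA was at 16.4, 18.1 and 19.7 CPM in NC and at 20.2, 15.4 and 20.9 CPM in NC + TGF-β1. It was at 15.6, 19.8 and 15.3 CPM in siPDCD5 and at 16.8, 20.3 and 20.2 CPM in siPDCD5 + TGF-β1. All 12 libraries lay between 15.3 and 20.9 CPM, and the groups overlapped throughout. With knockdown the log2 fold change was -0.09 (interval -0.42 to 0.23, adjusted p = 0.837) without TGF-β1 and 0.02 (interval -0.31 to 0.34, adjusted p = 0.979) with it. With TGF-β1 it was 0.06 in NC cells and 0.17 in siPDCD5 cells (adjusted p = 0.855 and 0.5). Without the libraries that stood apart Kat5 was at 0.18 and 0.11 with TGF-β1 (adjusted p = 0.368 and 0.606) and at -0.04 and -0.11 with knockdown (0.904 and 0.694). How the counting used strand is not given in the sources used here, and reads from Rnaseh2c could therefore enter the Kat5 counts.

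**Figure D2:**
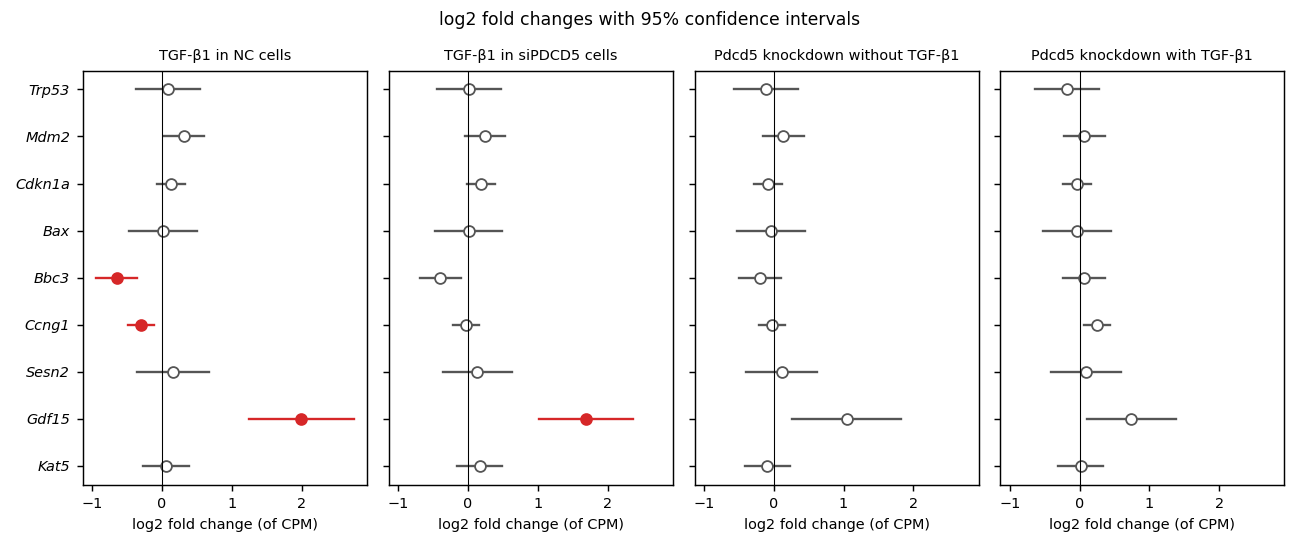
log2 fold change (point) and 95% confidence interval (line) of the 9 tested genes in the 4 comparisons; filled red points passed an adjusted p of 0.05. Gdf15 was called in both TGF-β1 comparisons and Bbc3 and Ccng1 in NC cells, and no point was called in either knockdown comparison.

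Set beside all genes, TGF-β1 changed 3 of the 9 tested genes in NC cells, where 15.3% of the 12425 genes tested were called, and 1 of 9 in siPDCD5 cells, where 16.1% were. Knockdown changed 0 of 9 both without TGF-β1, against a background of 3.44%, and with it, against 1.55%. At an unadjusted p under 0.05 by edgeR's quasi-likelihood test, 1 of the 9 (Gdf15) passed with knockdown without TGF-β1 and 2 (Gdf15 and Ccng1) with it. By DESeq2 and by limma after quantile normalization 0 of the 9 were called in these knockdown comparisons. The interaction called 0% of all genes and none of the 9, with 638 genes of the 12425 at an unadjusted p under 0.05 and 1 of the 9 (Ccng1). For Trp53, Mdm2, Cdkn1a, Bax, Sesn2 and Kat5 the interaction lay between -0.07 and 0.11 on the log2 scale (adjusted p 0.988 to 0.999), and without the libraries that stood apart between -0.44 (Bax) and 0.35 (Trp53), with none called. The background shares are high enough with TGF-β1 that the counts for 9 genes are no result about the set.

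The same holds for separation of the groups. With TGF-β1 the 3 libraries of one group did not overlap the 3 of the other for 3 of the 9 genes in NC cells (29.6% of all tested genes) and for 3 in siPDCD5 cells (36.1%). With knockdown this held for 1 of the 9, Bbc3, without TGF-β1 (23.1% of all genes) and for 2, Ccng1 and Gdf15, with TGF-β1 (18.9%). The median log2 fold change of the 9 was 0.09 and 0.14 with TGF-β1 in NC and siPDCD5 cells, and -0.04 and 0.06 with knockdown without and with TGF-β1. Over all genes tested these medians lay between -0.03 and 0.02.

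The TGF-β1 comparisons in NC and in siPDCD5 cells share no library, and all 9 genes had the same sign in both, against 73% of all genes tested. The knockdown comparisons without and with TGF-β1 also share no library, and 6 of the 9 had the same sign in both, against 62.8% of all genes. Among the 3 with opposite signs, Bbc3, Ccng1 and Kat5, no knockdown value was called in either comparison. These counts are from the main fit and rest in part on the libraries that stood apart. Without both, the TGF-β1 values in NC and siPDCD5 cells had opposite signs for Trp53 (-0.20 and 0.15), Bax (0.23 and -0.21) and Sesn2 (0.36 and -0.05). The knockdown values then had opposite signs for Trp53, Mdm2, Bax, Bbc3 and Sesn2. The share of all genes in that setting was not computed.

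A further 36 genes known as p53 targets were read in the same fit, of which 34 could be tested. With TGF-β1 in NC cells 6 of them changed (17.6%, beside 15.3% of all tested genes), 3 up and 3 down, and in siPDCD5 cells 8 changed (23.5%, beside 16.1%), 4 up and 4 down, and all 6 called in NC cells were also called in siPDCD5 cells. Their median log2 fold change was -0.01 in NC and -0.10 in siPDCD5 cells. The called genes of this list lay in both directions, as did those above.

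Gadd45a, a growth arrest and DNA damage gene, had the largest change of the 36. It stood at 5.63 to 8.60 CPM in NC and at 30.5 to 42.2 CPM in NC + TGF-β1, with no overlap (log2 fold change 2.32 ± 0.18, adjusted p = 6.49e-07). In siPDCD5 cells it went from 6.70 to 8.16 CPM without to 25.6 to 32.5 CPM with TGF-β1 (1.90 ± 0.18, adjusted p = 4.2e-06). Plk2, a polo-like kinase of the stress response, also rose in both (log2 fold change 0.50 in NC and 0.85 in siPDCD5 cells), and so did Perp (0.31 and 0.36). Fas, the death receptor gene, was called in siPDCD5 cells (0.74, adjusted p = 0.0071) and not in NC cells (0.43, adjusted p = 0.105).

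Sesn1, a sestrin gene like Sesn2, fell from 9.05 to 11.7 CPM in NC to 4.90 to 8.22 CPM with TGF-β1 (log2 fold change -0.79 ± 0.23, adjusted p = 0.0276), and in siPDCD5 cells by 0.90 on the log2 scale. Btg2, an antiproliferative gene, fell by 0.39 in NC and 0.37 in siPDCD5 cells on the log2 scale. Trp53inp1, whose product is known to promote p53-dependent death and autophagy, fell by 0.39 in NC and by 0.55 in siPDCD5 cells, and Psrc1, a spindle gene, was called in siPDCD5 cells at -0.57 (adjusted p = 0.0329). No difference between the NC and siPDCD5 responses of these genes was called.

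The calls of Gadd45a and Plk2 in both comparisons, of Btg2 in NC cells and of Fas and Trp53inp1 in siPDCD5 cells held in all 21 alternative fits, and where an absolute log2 fold change of at least 1 was required those of Gadd45a alone were left. In NC cells those of Perp, Sesn1 and Trp53inp1 were lost without NC replicate 3 (adjusted p = 0.147, 0.104 and 0.0535) or NC + TGF-β1 replicate 1 (0.108, 0.105 and 0.0607) or replicate 3 (0.0539, 0.107 and 0.0586), and those of Perp and Sesn1 also without NC replicate 2 (0.104 and 0.0849). In siPDCD5 cells the calls of Perp, Sesn1, Btg2 and Psrc1 were lost without siPDCD5 + TGF-β1 replicate 2 (adjusted p = 0.0503, 0.0607, 0.0672 and 0.113). Psrc1 depended most on siPDCD5 replicate 1, without which it was -0.33 (adjusted p = 0.156), and it was also lost without NC replicate 3 (0.0552) or siPDCD5 + TGF-β1 replicate 1 (0.0786) or replicate 3 (0.0884). Other single libraries without which a call was lost in siPDCD5 cells were siPDCD5 replicate 2 for Sesn1 (0.0618), siPDCD5 replicate 1 for Btg2 (0.069), siPDCD5 + TGF-β1 replicate 1 for Perp (0.0619) and siPDCD5 + TGF-β1 replicate 3 for Sesn1 (0.0563) and Btg2 (0.0652).

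**Figure D3:**
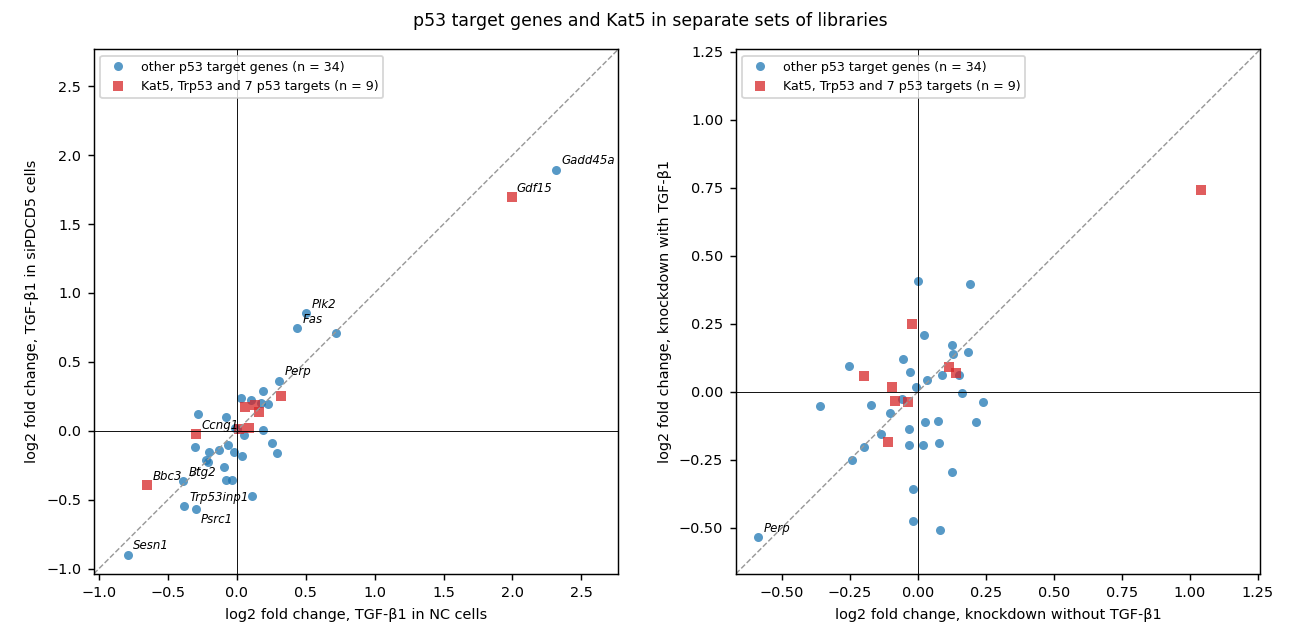
Each point is a gene, with its log2 fold change in one pair of groups on x and in a separate pair of groups on y: TGF-β1 in NC against siPDCD5 cells (left) and knockdown without against with TGF-β1 (right); squares are Kat5, Trp53 and the 7 tested targets described first, circles 34 other p53 target genes, the dashed line is equality, and genes called in either comparison are named. Gadd45a and Gdf15 lay at the upper right and Sesn1 at the lower left with TGF-β1, and Perp was the named gene with knockdown.

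With knockdown, 1 of the 34 tested genes was called without TGF-β1 and 1 with it (2.94% each, beside 3.44% and 1.55% of all tested genes), and it was Perp in both. These shares are near the background. Perp encodes a membrane protein of desmosomes that is also a p53 effector of cell death. It stood at 82.2 to 92.9 CPM in NC and at 52.8 to 62.6 CPM in siPDCD5, and with TGF-β1 at 104 to 112 CPM in NC and at 70.6 to 77.2 CPM in siPDCD5. The groups did not overlap in any of the 4 comparisons. Its log2 fold change with knockdown was -0.59 ± 0.091 without TGF-β1 (0.666-fold, adjusted p = 0.00227) and -0.53 ± 0.090 with it (0.691-fold, adjusted p = 0.00707). The first call held in all 21 alternative fits, and the second was lost without siPDCD5 + TGF-β1 replicate 3 (adjusted p = 0.0639) and when only the 6 libraries compared were fitted (0.0556). Both ended where an absolute log2 fold change of at least 1 was required. The medians of the list were 0.01 without and -0.05 with TGF-β1.

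Of 24 regulators and partners of p53, 22 could be tested, and 3 changed with TGF-β1 in NC cells (13.6%, beside 15.3% of all tested genes), 3 in siPDCD5 cells (13.6%, beside 16.1%), 2 with knockdown without TGF-β1 (9.09%, beside 3.44%) and 0 with knockdown with TGF-β1 (beside 1.55%, with 2 at an unadjusted p under 0.05 by edgeR's quasi-likelihood test). Ppp1r13l and Trp53bp2 encode iASPP and ASPP2, which are known to restrain and to favour p53 at cell death genes. Ppp1r13l stood at 15.3 to 18.7 CPM in NC, 38.5 to 44.0 CPM in NC + TGF-β1, 10.2 to 13.4 CPM in siPDCD5 and 33.2 to 35.2 CPM in siPDCD5 + TGF-β1. It rose with TGF-β1 in NC cells (log2 fold change 1.27 ± 0.12, adjusted p = 3.65e-06) and in siPDCD5 cells (1.55 ± 0.12, adjusted p = 7.2e-07), and it was lower with knockdown without TGF-β1 (-0.55 ± 0.12, adjusted p = 0.025). With TGF-β1 the knockdown value was -0.27 (adjusted p = 0.317). Both TGF-β1 calls held in all 21 alternative fits, and the knockdown call was lost without NC replicate 1 or 2 or siPDCD5 replicate 2 or 3 (adjusted p 0.0683 to 0.116).

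Trp53bp2 stood at 15.0 to 18.5 CPM in NC and fell both with TGF-β1, to 7.33 to 10.1 CPM (log2 fold change -0.98 ± 0.15, adjusted p = 0.000319), and with knockdown, to 10.4 to 12.3 CPM (-0.61 ± 0.15, adjusted p = 0.0352). In siPDCD5 cells with TGF-β1 it stood at 9.41 to 10.3 CPM, and neither TGF-β1 in siPDCD5 cells (-0.20, adjusted p = 0.414) nor knockdown with TGF-β1 was called. The difference between its NC and siPDCD5 responses was not called. Without both libraries that stood apart, a setting chosen after seeing the data, that difference was called. The TGF-β1 call in NC cells held in all 21 alternative fits but, at -0.98, not where an absolute log2 fold change of at least 1 was required, and the knockdown call was lost without any of 7 libraries, NC replicates 2 and 3, siPDCD5 replicates 1 and 3 and each of siPDCD5 + TGF-β1 (adjusted p 0.0534 to 0.151). Cdkn2a, whose products include ARF, which restrains MDM2, rose with TGF-β1 in NC cells (0.40, adjusted p = 0.0179), a call lost without NC replicate 1 (0.0626) or 2 (0.0891), with only the 6 libraries compared (0.0624), with GC offsets (0.0901) and after quantile normalization, where it was 0.26 (adjusted p = 0.215). Counts per gene symbol do not tell the transcripts of Cdkn2a apart. Mdm4, an inhibitor of p53, and Hipk2, a kinase of p53, fell with TGF-β1 in siPDCD5 cells, by 0.50 and 0.41 on the log2 scale, and the Hipk2 call was lost without any of the 6 libraries compared (adjusted p 0.0598 to 0.107).

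TIP60 works in a large complex, and of 17 further subunit genes, all tested, 1 changed. It made up 5.88% of the 17 with TGF-β1 in siPDCD5 cells, beside 16.1% of all tested genes. It was Actl6a, an actin-related subunit that other remodelling complexes share, and it rose in that comparison (log2 fold change 0.42 ± 0.12, adjusted p = 0.0273). That call was lost without siPDCD5 replicate 1 (adjusted p = 0.0826), siPDCD5 + TGF-β1 replicate 2 (0.122) or replicate 3 (0.0598). By edgeR's quasi-likelihood test 0 of the 17 were called with TGF-β1 in NC cells (2 at an unadjusted p under 0.05), with knockdown without TGF-β1 (1) or with it (0). Of all tested genes 15.3%, 3.44% and 1.55% were called in these comparisons. Of 7 other histone acetyltransferase genes, Kat2b, which encodes PCAF, fell with TGF-β1 by 0.52 in NC and by 0.46 in siPDCD5 cells on the log2 scale, and Kat6b, of the MYST family like Kat5, fell by 0.56 and 0.48. They made up 28.6% of the 7 in each comparison, beside 15.3% of all tested genes in NC and 16.1% in siPDCD5 cells. The Kat6b calls held in all 21 alternative fits and, like those of Kat2b, ended where an absolute log2 fold change of at least 1 was required. The Kat2b call in NC cells was lost without NC replicate 2 or 3 or NC + TGF-β1 replicate 1 or 3 (adjusted p 0.0657 to 0.0982), and that in siPDCD5 cells without any of 8 libraries (adjusted p 0.0503 to 0.165). By edgeR's quasi-likelihood test 0 of the 7 were called with knockdown, beside 3.44% of all tested genes without TGF-β1 and 1.55% with it. At an unadjusted p under 0.05 by the same test there was 1 without TGF-β1 and 0 with it.

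The genes whose log2 CPM ran most like that of Trp53 over the 12 libraries, among 9127 compared, were Tceb1 (Pearson's r = 0.961), Rnf24 (0.953) and Atp13a3 (0.936). For Kat5 they included Raly (0.859) and Braf (0.849), and for Cdkn1a they were Eif2b2 (0.969), Il4ra (0.921) and Rala (0.912). These are descriptions of 12 libraries that share groups, depth and the libraries that stand apart, of which NC + TGF-β1 replicate 2 held the highest Trp53 value.

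Within the groups, several of these genes deviated from their group means in the same libraries. In NC + TGF-β1 replicate 2 and siPDCD5 replicate 1, Gdf15, Bax and Sesn2 were each 0.44 to 0.75 below their group means on the log2 scale, whereas Trp53 and Mdm2 were 0.23 to 0.48 above theirs. The last 500 bases of the transcript had a GC content of 58.2% in Bax, 56.2% in Gdf15 and 56% in Sesn2, against a median of 43.8% over the tested genes, and of 49.4% in Trp53 and 40.8% in Mdm2. Bbc3 had 54.8%, Kat5 54.2% and Cdkn1a 54%. In the same pair of libraries Bbc3 deviated by 0.13 and -0.01, Cdkn1a by -0.19 and 0.01 and Kat5 by -0.28 and -0.11. Across 11938 genes the deviation of a library from its group mean correlated with GC content at r = -0.21 in NC + TGF-β1 replicate 2 and -0.124 in siPDCD5 replicate 1, against -0.0986 to 0.17 in the others. Whether GC content had a part in the deviations of these genes was not tested. With offsets for GC content, a setting chosen after seeing the data, Gdf15 was called with TGF-β1 in NC cells (log2 1.95) and in siPDCD5 cells (1.73), Bbc3 was called in NC cells, and Ccng1 was not (adjusted p = 0.0657).

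**Figure D4:**
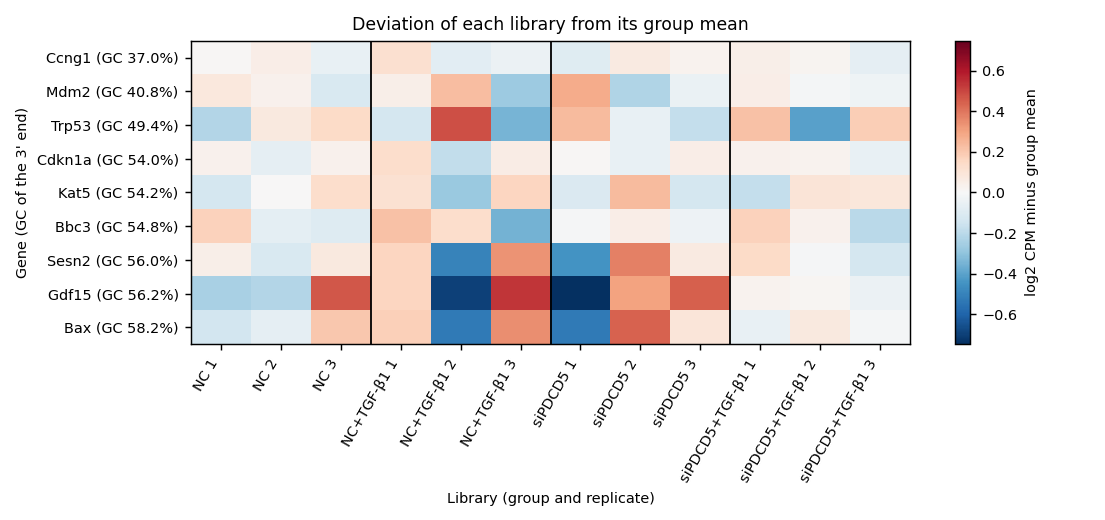
log2 CPM minus the mean of the library's own group (colour; blue below, red above) for the 9 tested genes, ordered by the GC content of their 3′ end, in the 12 libraries. Gdf15, Bax and Sesn2 were low together in NC + TGF-β1 replicate 2 and siPDCD5 replicate 1, and Trp53 and Mdm2 were high there.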

How the data were processed

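The authors prepared libraries with the QuantSeq 3′ kit, used Bowtie2 for alignment of single-end reads and Bedtools for counting, in which multiple alignments were kept beside unique ones, and deposited the counts per gene symbol for each library, before the quantile normalization in edgeR that their methods name. The submitters' processing notes name mm10, and the annotation and the use of strand are not given in the sources used here. Reads of near-identical genes can be shared between them.

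Groups came from the labels, 3 libraries each. Nothing says that they were separate cultures, so p-values measure the spread between these libraries, which may be technical. No pair within a group agreed within sampling noise. Counts of the 12 libraries (23282 symbols, 5134 of them at 0 throughout) were read with R 4.3.3. edgeR 4.0.16 kept 12425 genes by its default filter, scaled libraries by TMM and fitted 1 quasi-likelihood model of the 4 groups (square root of the common dispersion 0.132), with contrasts for TGF-β1 in NC and siPDCD5 cells, knockdown without and with TGF-β1, and the interaction. p-values were adjusted by Benjamini-Hochberg over all tested genes, and genes under 0.05 were called. Standard errors and 95% intervals come from that fit, log2 CPM used a prior count of 2, and the floor for 0 is 3 counts. The floor covers counting error only. The model was tested on simulated data.

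The 9 genes that passed the filter are given in every comparison, and Pmaip1 by its counts. From 4 lists (other p53 targets, p53 regulators, TIP60 subunits, other acetyltransferases), up to 4 higher and 4 lower called genes with the largest change were named. For Trp53, Kat5 and Cdkn1a the 3 genes most like each over the 12 libraries were also named, of which 1 is not reported here. Members and lists were chosen with earlier results of these data known. The alternatives were DESeq2 1.42.0, limma 3.58.1 after quantile normalization, upper-quartile factors, no filter, at least 10 counts in every library, the 6 libraries compared alone, a replicate block, a minimum absolute log2 fold change of 1, and each library left out. Leaving out both libraries that stood apart and GC offsets were added after seeing the data. Promoter windows are from RefSeq, and gene positions from GENCODE M21 on GRCm38, the assembly of mm10.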

Additional observations from a re-analysis of the deposited data

How the results depend on the processing

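No result changed direction with a call on both sides. With a minimum absolute log2 fold change of 1, 1 of the described genes was called with TGF-β1 in NC cells in place of 3, and 1, 1, 0 and 0 of the other p53 targets in place of 6, 8, 1 and 1 (TGF-β1 in NC cells, TGF-β1 in siPDCD5 cells, knockdown without and with TGF-β1). With TGF-β1 in siPDCD5 cells, 2 of the described genes were called in place of 1 after quantile normalization, with only the 6 libraries compared, and with the replicate block. With only the 6 libraries compared, 0 other p53 targets were called with knockdown with TGF-β1. Leaving out 1 library at a time gave 1 to 2 described genes with TGF-β1 in siPDCD5 cells and 0 to 1 with knockdown without TGF-β1 (1 without NC + TGF-β1 replicate 2 or siPDCD5 replicate 1). Other p53 targets came to 3 to 8 with TGF-β1 in NC cells (3 without NC replicate 3 or NC + TGF-β1 replicate 1), 4 to 10 in siPDCD5 cells (4 without siPDCD5 + TGF-β1 replicate 2, 5 without its replicate 3), 1 to 1 with knockdown without TGF-β1, 0 to 1 with TGF-β1 (0 without siPDCD5 + TGF-β1 replicate 3) and 0 to 0 in the interaction. Without both NC + TGF-β1 replicate 2 and siPDCD5 replicate 1, a setting chosen after seeing the data, 3 described genes were called with TGF-β1 in siPDCD5 cells and 1 with knockdown without TGF-β1, and other p53 targets came to 11, 12, 2, 2 and, in the interaction, 1 (Dcxr, a xylulose reductase gene), while the interaction called 200 of all genes in place of 0. In that setting Cdkn1a was called with TGF-β1 in NC cells beside Bbc3, Ccng1 and Gdf15. The interaction then also called Trp53bp2, from the list of p53 regulators. The cause was not tested. Of the described genes' log2 fold changes under the alternatives, 828 kept direction and side of the threshold, 7 lost and 12 gained a call, and 89 changed sign with no call under either setting. Same-numbered libraries of NC and NC + TGF-β1 deviated together at a mean r of 0.113 (lowest 0.00742), against -0.0569 for differently numbered ones. For the other groups compared, same-numbered libraries had mean r of -0.14 to 0.023. With 3 libraries a group these values cannot decide whether equal numbers mark shared cultures, and the main fit did not pair the libraries. The block called 2, 2, 0, 0 and 0 described genes and 5, 7, 1, 1 and 0 other p53 targets. Depth was least for Gdf15, with 24 to 40 counts in the NC libraries, and Sesn2, with 64 to 156 in all libraries.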
